A study of Mus musculus with 8 samples.

Results

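In resting naive CD4 T cells, 40 genes of the cell division cycle were followed across 8 RNA-seq libraries. The set was chosen by gene symbol and holds 17 genes that act before and during S phase, 21 that act in G2 and mitosis, and 2 further proliferation-linked genes (Stmn1 and Hmgb2), out of 53465 gene IDs in the count table. All 40 had reads, and 39 had a row in the normalized table, the exception being Ube2c with 8 reads in all. All mice, WT included, had the genotype Satb1fl/fl x CD4-CreERT2wt/+, in which Satb1 is floxed and CD4 sequences drive a Cre recombinase that tamoxifen activates. In 4 libraries (Sample_2907_KO, Sample_2908_KO, Sample_2909_KO and Sample_2910_KO) the mice had received tamoxifen (labelled KO), and in 4 (Sample_2911_WT, Sample_2913_WT, Sample_2914_WT and Sample_2915_WT) they were untreated (labelled WT). Tamoxifen treatment and the intended loss of Satb1, a chromatin-organising protein of T cells, therefore coincide and cannot be told apart. The cells came from spleen and lymph node and were naive by their label (CD3+CD4+CD25-CD44low/-CD62L+). The labels give no age, and do not say whether the libraries of a group came from separate animals. The p-values below measure the spread between these libraries, which may be technical.

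A naive T cell rests outside the cycle until its antigen receptor is engaged. Progress into S phase begins when D-type cyclins with CDK4 and CDK6 inactivate the retinoblastoma family of pocket proteins, which releases E2F factors onto the genes for DNA replication. Genes of G2 and mitosis are switched on later by the MMB and FOXM1 complexes, and in resting cells the DREAM complex holds both groups low. S phase genes commonly carry an E2F site near their start, and mitotic genes a cell cycle genes homology region (CHR) with nearby CCAAT boxes.

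Libraries held 5227758 to 21998174 counted reads (KO 7544075 to 9253620), so that 1 read was worth 0.0446 to 0.193 CPM (the read count scaled to a common library size with TMM factors, the unit of every level below unless a length is named). Satb1, the targeted gene, measured 855.1, 1032, 839.6 and 913.2 CPM in the KO libraries and 987.2, 1015, 1046 and 1083 CPM in the WT libraries, so the groups overlapped. Its log2 fold change was -0.18 (SE 0.059), short of the threshold by edgeR's quasi-likelihood test (adjusted p = 0.0582). It passed as lower in KO in 4 of 17 alternatives, with library size only (0.0364), no count filter (0.0191), limma-trend on the normalized values (0.0300) and without Sample_2908_KO (0.0015), at log2 fold changes of -0.25 to -0.19. KO below names the label, since most of the transcript level remained. The counts are per gene, so loss of the floxed exons or of the protein was not tested. Summed CD4 T cell markers ranged over 3968 to 4314 CPM in KO and 4205 to 4359 CPM in WT. Marker lists of other cell types were far lower. The 8 B cell markers summed to 358 to 416 CPM in KO and 446 to 482 CPM in WT. Ighm made up most of this sum (382 ± 21.97 against 460 ± 16.2 CPM, SD, n = 4 each). The B cell genes Ms4a1 and Pax5 had 3 and 1 reads in KO and 0 in WT. The plasma cell list summed to 66.0 to 78.5 CPM against 53.0 to 59.1 CPM, and in it Jchain, Sdc1 and Mzb1 had at most 32 reads in a group. Immature thymocyte markers summed to 54.1 to 57.8 CPM against 64.7 to 65.6 CPM, with Rag1, Rag2 and Ptcra at 0 reads in every library. The 7 markers of the naive state summed to 6278 to 7086 CPM in KO and 6066 to 6584 CPM in WT, with 2 higher and 2 lower in KO by the edgeR test. The 9 activated or memory T cell markers summed to 266 to 334 CPM in KO and 188 to 207 CPM in WT, and Ifng was at 0 reads. Myeloid (15.3 to 23.7 against 9.67 to 40.1 CPM), NK (39.0 to 44.2 against 42.1 to 51.0 CPM), CD8 (9.65 to 14.7 against 13.2 to 18.2 CPM) and erythroid markers (0.329 to 1.34 against 0.346 to 1.26 CPM) were low in both groups. In these, S100a8, S100a9, Hbb-bs and Hbb-bt were at 0 reads in every library, and NK and CD8 sums were mostly Prf1 and Cd8b1.

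In promoter sequence, E2F strings were more frequent among S phase genes and CHR strings among mitotic genes. Most S phase promoters held no E2F string. RefSeq promoter windows (assembly GRCm38.p6) of 300 bases, 250 before and 50 after a start, were found for 33 of the 40 genes, in 35 windows. There was none for Mcm4, Ccne2, Ccna2, Aurkb, Kif20a, Tpx2 and Stmn1. The 250 bases before the start are shown, 5' to 3' on the strand of the gene, for 4 S phase genes (Mcm6 and Mcm5 of the helicase, and Uhrf1 and Tk1, which had the highest fold changes) and for 3 mitotic genes. Capitals mark an E2F string or a CHR string on either strand, and Tk1 has neither in these bases. For Uhrf1 the window shown was picked because it holds an E2F string. A further Uhrf1 window, chr17:56303087-56303386, spans the annotated gene start and holds neither string. The positions are Mcm6 chr1:128359706-128359955 (minus strand), Mcm5 chr8:75109259-75109508 (plus strand), Uhrf1 chr17:56304063-56304312 (plus strand), Tk1 chr11:117826015-117826264 (minus strand), Top2a chr11:99024190-99024439 (minus strand), Cdc20 chr4:118437344-118437593 (minus strand) and Cdk1 chr10:69352913-69353162 (minus strand).
Mcm6: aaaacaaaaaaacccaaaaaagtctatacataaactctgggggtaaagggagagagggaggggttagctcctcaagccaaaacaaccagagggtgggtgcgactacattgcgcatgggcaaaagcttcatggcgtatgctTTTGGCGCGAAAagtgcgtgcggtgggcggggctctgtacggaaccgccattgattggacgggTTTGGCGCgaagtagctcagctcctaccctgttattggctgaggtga
Mcm5: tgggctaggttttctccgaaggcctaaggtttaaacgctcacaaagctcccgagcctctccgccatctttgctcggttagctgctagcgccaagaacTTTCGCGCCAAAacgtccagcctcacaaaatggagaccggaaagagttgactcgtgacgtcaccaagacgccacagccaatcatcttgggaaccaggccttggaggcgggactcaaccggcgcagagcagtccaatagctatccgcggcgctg
Uhrf1: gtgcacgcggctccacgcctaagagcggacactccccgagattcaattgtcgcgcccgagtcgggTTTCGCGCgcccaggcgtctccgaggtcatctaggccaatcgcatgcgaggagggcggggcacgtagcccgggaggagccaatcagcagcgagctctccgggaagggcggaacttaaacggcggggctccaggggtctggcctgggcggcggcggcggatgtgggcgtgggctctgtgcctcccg
Tk1: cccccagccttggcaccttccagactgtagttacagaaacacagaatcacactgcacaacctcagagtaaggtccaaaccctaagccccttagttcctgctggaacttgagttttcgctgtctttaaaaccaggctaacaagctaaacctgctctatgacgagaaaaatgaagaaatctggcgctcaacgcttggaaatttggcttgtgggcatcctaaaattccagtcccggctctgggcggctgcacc
Top2a: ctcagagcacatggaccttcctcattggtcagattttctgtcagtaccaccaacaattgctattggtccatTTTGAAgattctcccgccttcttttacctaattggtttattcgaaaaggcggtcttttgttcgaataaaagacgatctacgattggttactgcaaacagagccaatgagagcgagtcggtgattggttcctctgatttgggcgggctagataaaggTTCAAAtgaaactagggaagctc
Cdc20: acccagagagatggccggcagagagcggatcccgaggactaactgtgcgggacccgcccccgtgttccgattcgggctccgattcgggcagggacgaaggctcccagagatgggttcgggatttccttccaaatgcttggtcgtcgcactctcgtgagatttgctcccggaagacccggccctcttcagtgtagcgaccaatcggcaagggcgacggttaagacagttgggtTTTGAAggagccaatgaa
Cdk1: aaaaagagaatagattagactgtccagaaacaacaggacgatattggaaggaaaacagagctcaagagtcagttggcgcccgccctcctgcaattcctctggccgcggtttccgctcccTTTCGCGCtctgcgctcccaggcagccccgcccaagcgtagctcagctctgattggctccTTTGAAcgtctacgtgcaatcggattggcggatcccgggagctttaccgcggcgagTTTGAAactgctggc
The E2F strings searched were TTTCCCGC, TTTCGCGC, TTTGCCGC and TTTGGCGC, and the CHR string was TTTGAA, each on both strands. The E2F and CHR strings do not overlap each other in the printed windows, although 2 E2F strings on opposite strands can overlap, as in Mcm6 and Mcm5. The strings were chosen after the shares of several had been looked at, so the shares are a description.

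**Figure D1:**
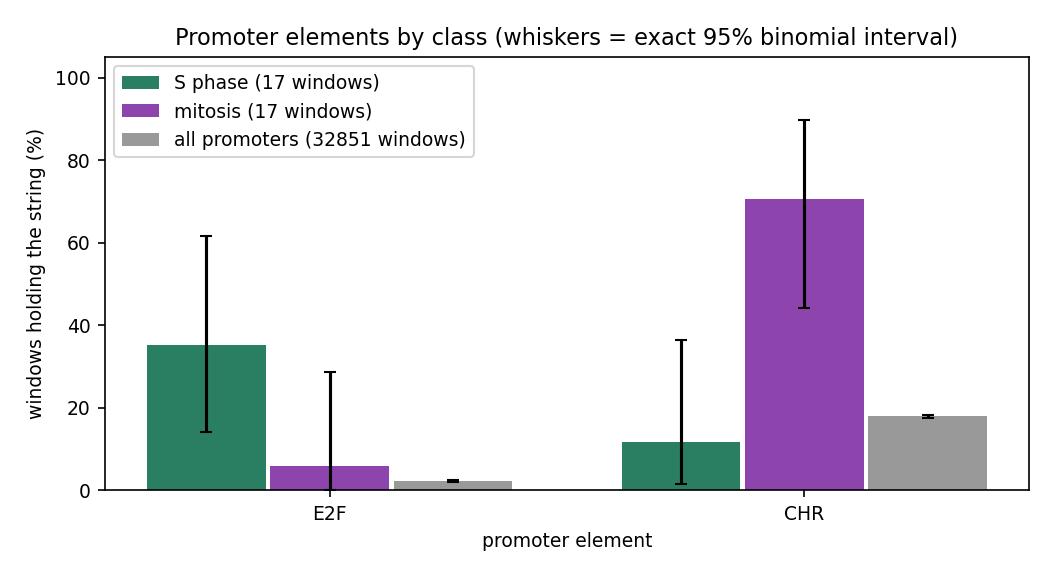
Share of 300-base promoter windows (y axis, percent) that hold an E2F or a CHR string (x axis), for 17 windows of S phase genes, 17 of mitotic genes and all 32851 windows; whiskers are exact 95% binomial intervals. E2F strings stand highest in the S phase windows (35.3%) and CHR in the mitotic windows (70.6%).

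An E2F string lay in 6 of 17 S phase windows (35.3%, exact 95% binomial interval 14.2 to 61.7%) and in 1 of 17 mitotic windows (5.88%), that of Cdk1. Over all 32851 windows the share was 2.26%. A CHR string lay in 2 of 17 S phase windows (11.8%) and in 12 of 17 mitotic windows (70.6%, interval 44.0 to 89.7%), against 17.9% of all windows. In the 250 bases before the start alone, E2F strings lay in 5 of 17 S phase windows (29.4%) and CHR strings in 8 of 17 mitotic windows (47.1%, interval 23.0 to 72.2%), against 1.86% and 16.0% of all windows. CCAAT was common in both classes, in 12 of 17 S phase windows (70.6%) and 14 of 17 mitotic windows (82.4%), against 37.4% of all. In the printed windows Cdk1, the kinase that drives entry into mitosis, holds both an E2F string and CHR strings. A match of letters is a description and no measure of binding.

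S phase genes were far more abundant than mitotic genes in both groups. Per kb of exon, the median level was 3.001 CPM per kb over the 17 S phase genes (range 0.182 to 35.3) and 0.308 CPM per kb over the 21 mitotic genes (0.0270 to 1.64). Pcna, the sliding clamp of DNA polymerase, led at 35.3 CPM per kb, followed by Mcm4 at 27.98 and Mcm6 at 18.8, both subunits of the MCM2-7 helicase. The most abundant mitotic gene, Cdc20, an activator of the anaphase-promoting complex, reached 1.64 CPM per kb, below 9 of the S phase genes. Mki67, which encodes the proliferation antigen Ki-67, stood at 0.561 CPM per kb. In reads, the S phase genes held 44509 of the 50337 reads of the set and the mitotic genes 3005. With lengths taken from the longest transcript in place of all exons, the ratio of the class medians rose from 9.73 to 16.8.

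**Figure D2:**
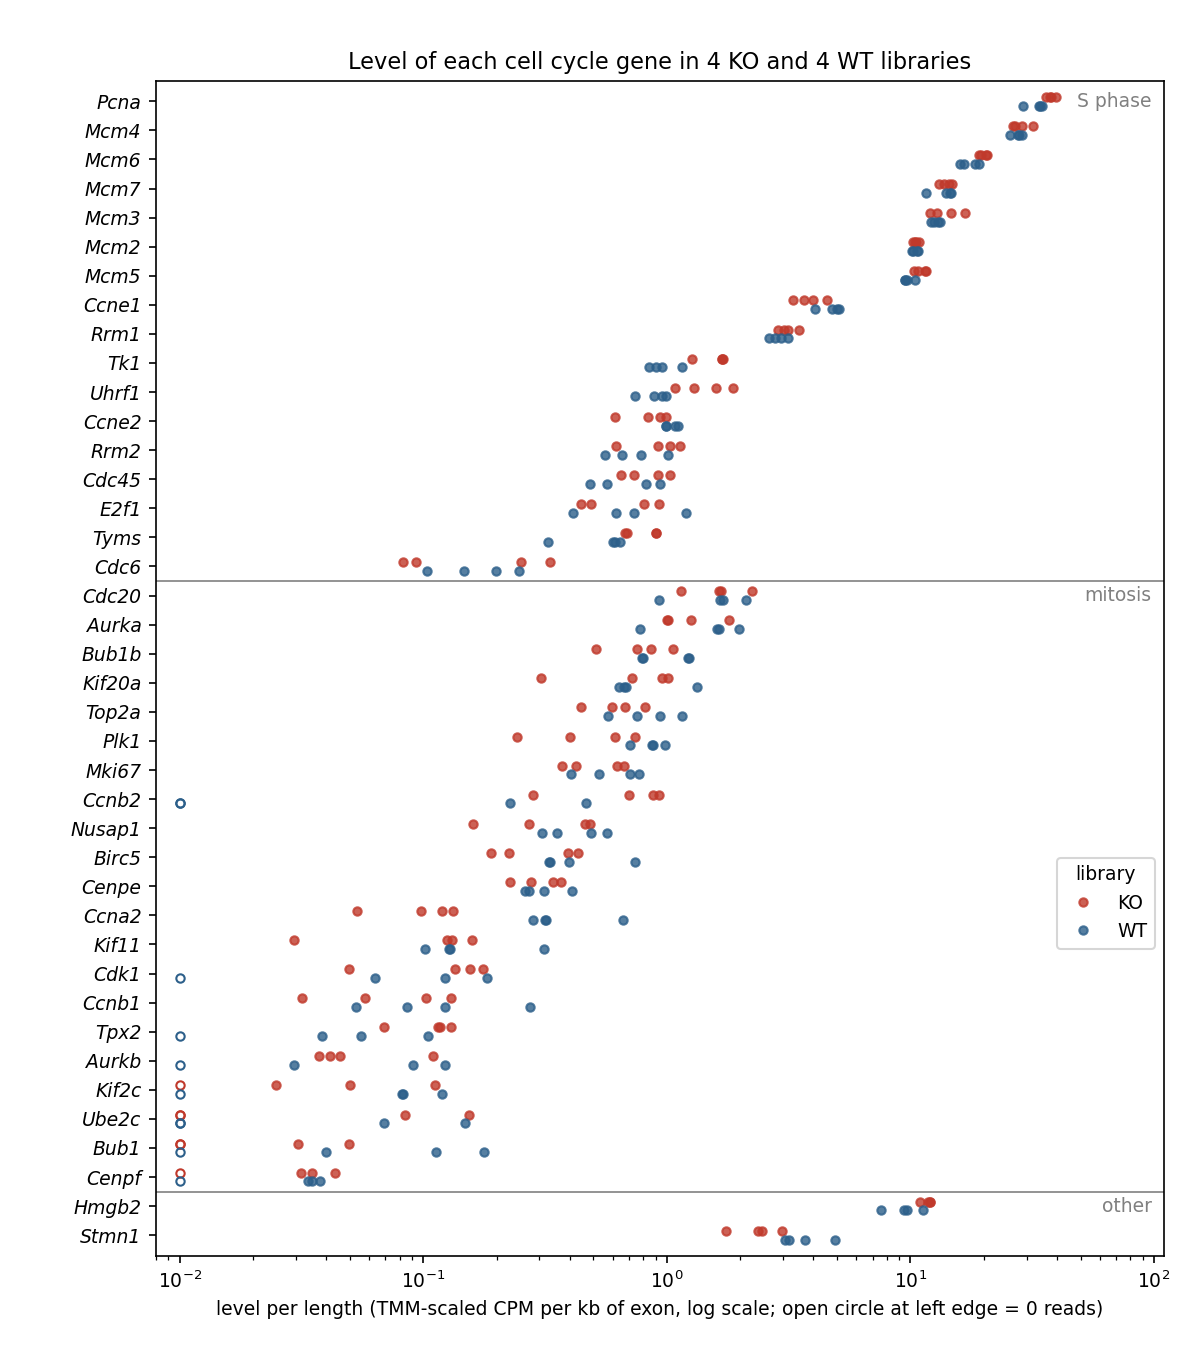
Level of each of the 40 genes (rows) in CPM per kb of exon on a log axis, 1 point for each of 4 KO and 4 WT libraries, with open circles at the left edge for 0 reads. Pcna and the 6 MCM genes stand above 9 CPM per kb in every library, while most mitotic genes stand below 1.

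Between the groups, the 2 classes leaned in opposite directions, but only 1 gene of each passed the test. Of the 29 genes with enough reads to be tested, Tk1 rose and Ccna2 fell in KO, or 6.90% of them, close to the 6.39% of all 11772 tested genes that changed (3.98% higher and 2.41% lower). Ccna2 entered the test through the WT libraries alone, so its call is counted here as a description. At an unadjusted p under 0.05 there were 7 of 29 genes (24.1%), against 18% of all tested genes, 5 of them higher in KO and 2 lower. In 7 of 29 no KO library overlapped the WT range, 4 with KO higher and 3 with KO lower, against 11.1% of all tested genes. Among S phase genes 13 of 16 tested had a log2 fold change above 0 (Mcm2, the nearest to 0, was below it with library size alone or no filter, and other genes near 0 when libraries were left out) and the median was 0.16 (range -0.30 to 0.73). Among mitotic genes 1 of 11 tested was above 0 and the median was -0.28 (range -1.87 to 0.11). Of all tested genes 49.9% were above 0, with a median of -0.00. These counts cover the genes that passed the filter on low counts, which removed 10 of 21 mitotic genes. Besides Ccna2, the mitotic genes Plk1 and Nusap1 met the cutoff in 4 WT but only 2 KO libraries. Ccnb2, which met it in 2 KO and 0 WT libraries, was removed. The mitotic count and median of tested genes therefore lean on genes kept through WT. A fit with no filter gave 12 of 17 S phase genes and 5 of 21 mitotic genes above 0, with medians of 0.15 and -0.22.

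**Figure D3:**
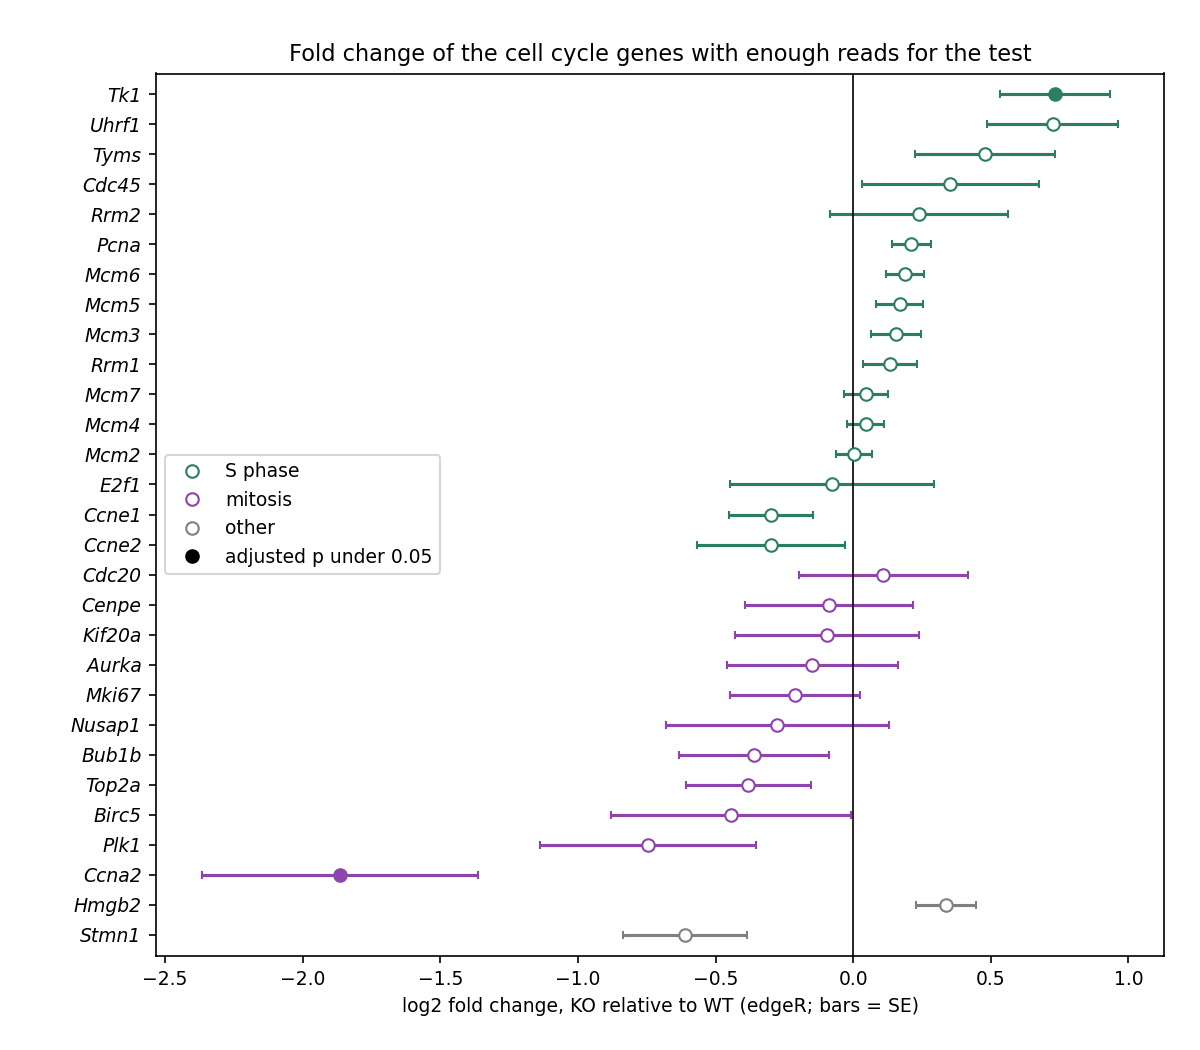
Log2 fold change of KO relative to WT (x axis; bars are SE) for the 29 tested genes, grouped by class, with filled points for an adjusted p under 0.05. Tk1 (0.73) and Ccna2 (-1.87) are the filled points, and 10 of 11 mitotic genes lie left of 0. Of these, Ccna2, Plk1 and Nusap1 met the low-count cutoff in more WT than KO libraries.

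Tk1 encodes thymidine kinase 1, the salvage enzyme that makes thymidine monophosphate for DNA synthesis (ENSMUSG00000025574.13, mm10 chromosome 11, 117815526 to 117826092, minus strand). It measured 8.79, 6.58, 8.75 and 8.84 CPM in the KO libraries and 5.98, 4.69, 4.95 and 4.41 CPM in the WT libraries. Every KO library stood above every WT library, although the gap between Sample_2908_KO and Sample_2911_WT was narrow. The means were 8.24 ± 1.11 and 5.01 ± 0.69 CPM (SD, n = 4 each). Tk1 thus rose 1.66-fold in KO (log2 fold change 0.73, SE 0.199, edgeR quasi-likelihood adjusted p = 0.0201). The call was lost in 8 of 17 alternatives. They were leaving out any 1 of Sample_2907_KO, Sample_2909_KO, Sample_2910_KO, Sample_2913_WT, Sample_2914_WT or Sample_2915_WT, leaving out Sample_2911_WT and Sample_2914_WT together, and thinning every library to the shallowest (adjusted p 0.0509 to 0.374). In bulk RNA a higher share of cells in cycle and more RNA per cell cannot be told apart. Afmid, on the opposite strand, shares 83 exon bases with Tk1 with an estimate of 0.09 (log2, edgeR adjusted p = 0.875).

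The other 3 genes of nucleotide supply also had positive estimates that did not pass. Tyms, thymidylate synthase, the de novo route to the same nucleotide, measured 5.50, 4.17, 4.11 and 5.49 CPM in the KO libraries and 3.67, 1.98, 3.92 and 3.72 CPM in the WT libraries. Its groups did not overlap (log2 fold change 0.48, SE 0.256, edgeR adjusted p = 0.331). Tyms, with 323 reads in all, matches Reep3 (3021 reads) over up to 355 bases and Atp2b1 (11679 reads) over up to 95 bases. Identity there is up to 97.7% and 98.9%, and whether reads were shared was not tested. Rrm1 and Rrm2 encode the large and small subunits of ribonucleotide reductase, which makes deoxynucleotides. Rrm1 stood at 34.4 ± 2.87 and 31.7 ± 2.38 CPM and the S phase-restricted Rrm2 at 2.56 ± 0.62 and 2.08 ± 0.55 CPM (KO and WT, SD, n = 4 each). Their log2 fold changes were 0.13 (SE 0.097) and 0.24 (SE 0.323), and their groups overlapped.

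Of the 9 licensing and replication fork genes, 8 were tested, none passed, and all 8 estimates were at or above 0 (0.00 to 0.35, median 0.16). Of these, 3 changed sign in some alternatives: Mcm2 in 5 of 17 (down to -0.013, among them library size alone), Mcm4 in 1 (-0.016, without Sample_2909_KO) and Mcm7 in 2 (-0.040 without Sample_2914_WT, -0.058 without it and Sample_2911_WT). Pcna (ENSMUSG00000027342.14, chromosome 2, 132249162 to 132253314, minus strand) measured 90.9, 89.9, 94.8 and 86.4 CPM in the KO libraries and 83.4, 81.6, 69.4 and 80.8 CPM in the WT libraries. Its groups did not overlap, at 90.5 ± 3.45 and 78.8 ± 6.34 CPM (SD, n = 4 each), and its log2 fold change was 0.21 (SE 0.070, edgeR adjusted p = 0.0729). Mcm6 measured 95.7, 89.2, 96.4 and 91.2 CPM in the KO libraries and 85.9, 74.6, 77.6 and 89.2 CPM in the WT libraries. The lowest KO library and the highest WT library met, and its log2 fold change was 0.19 (SE 0.069, edgeR adjusted p = 0.116).

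The 6 MCM genes encode the subunits of 1 hexameric helicase, loaded on origins in G1, and their estimates were uneven. Mcm2 measured 73.5, 71.1, 72.6 and 75.5 CPM in the KO libraries and 71.4, 70.7, 74.9 and 74.3 CPM in the WT libraries, with a log2 fold change of 0.00 (SE 0.067). Mcm4 and Mcm7 both had 0.05 (SE 0.068 and 0.081), Mcm3 had 0.15 (SE 0.091) and Mcm5 had 0.17 (SE 0.086). None of the 6 passed, and with these SEs differences between the subunits were not tested. Mcm7 shares 321 exon bases with Ap4m1 on the opposite strand, which rose (log2 fold change 0.45, edgeR adjusted p = 0.0058), and since the kit does not mark strand, reads from the shared bases cannot be told apart by strand. Cdc45, a partner of the active helicase, stood at 2.93 ± 0.61 and 2.46 ± 0.74 CPM (SD, n = 4 each; log2 fold change 0.35, SE 0.321). It shares 209 exon bases with Ufd1 on the opposite strand, which was far more abundant (80.8 ± 2.46 and 82.2 ± 4.41 CPM in KO and WT). Cdc6, which loads the helicase, had too few reads for the test.

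Among genes of S phase entry, 3 of 4 estimates were below 0. Ccne1 and Ccne2 encode the E-type cyclins that drive CDK2 at the G1 to S transition. Ccne1 measured 12.1, 8.77, 10.6 and 9.78 CPM in the KO libraries and 10.8, 13.3, 12.7 and 13.5 CPM in the WT libraries (log2 fold change -0.30, SE 0.152, edgeR adjusted p = 0.303), with Sample_2907_KO above Sample_2911_WT. Ccne2 measured 2.93, 3.29, 3.46 and 2.14 CPM in the KO libraries and 3.47, 3.78, 3.88 and 3.46 CPM in the WT libraries, where the highest KO and the lowest WT library were equal to the digits shown. Its log2 fold change was also -0.30 (SE 0.269, edgeR adjusted p = 0.620), and it shares 609 exon bases with Ints8. E2f1, the activating E2F factor, stood at 2.10 ± 0.75 and 2.34 ± 1.05 CPM (SD, n = 4 each; log2 fold change -0.08).

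Uhrf1 recruits the maintenance DNA methyltransferase to newly copied DNA (ENSMUSG00000001228.14, chromosome 17, 56303321 to 56323486, plus strand). It measured 7.94, 4.60, 6.81 and 5.49 CPM in the KO libraries and 4.05, 3.78, 3.16 and 4.24 CPM in the WT libraries. Every KO library was above every WT library, and the estimate was as large as that of Tk1 (log2 fold change 0.72, SE 0.238), but it missed the threshold (edgeR adjusted p = 0.0668). It passed without Sample_2908_KO (adjusted p = 0.0326), and after thinning to the shallowest library its log2 fold change was 0.14 (adjusted p = 0.892).

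Ccna2 encodes cyclin A2, which partners CDK2 in S phase and CDK1 in G2 (ENSMUSG00000027715.9, chromosome 3, 36564865 to 36572150, minus strand). Its reads were 4, 2, 5 and 3 in KO and 6, 15, 29 and 15 in WT, or 0.489, 0.219, 0.540 and 0.402 CPM against 1.16, 2.70, 1.29 and 1.30 CPM. Every KO library stood below every WT library, and Sample_2913_WT was about 2-fold above the other 3 WT libraries. The means were 0.412 ± 0.141 and 1.61 ± 0.73 CPM (SD, n = 4 each), and the log2 fold change was -1.87 (SE 0.501, edgeR adjusted p = 0.0187). The gene passed the low-count filter in 4 of 4 WT and 0 of 4 KO libraries, so a gene tested on these terms had to differ. With no filter the adjusted p was 0.0314. Pooled by group there were 14 KO and 65 WT reads, a ratio of 0.283 (exact 95% interval 0.147 to 0.510, counting error only). The call was lost without Sample_2908_KO (edgeR adjusted p = 0.0695), Sample_2910_KO (0.0519) or Sample_2913_WT (0.0871), and without Sample_2911_WT and Sample_2914_WT together (0.0508). Without Sample_2914_WT, without Sample_2915_WT and after thinning it was not tested. Exosc9, on the opposite strand, shares 510 exon bases with Ccna2 at a level of 21.3 ± 2.04 and 22.9 ± 2.79 CPM (log2 fold change -0.12, edgeR adjusted p = 0.652), so that Ccna2 reads could include some of its reads.

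The other tested gene of the mitotic cyclin and APC/C group had an estimate near 0. Cdc20 measured 3.05, 4.17, 3.13 and 2.14 CPM in the KO libraries and 3.09, 3.97, 3.16 and 1.73 CPM in the WT libraries, and the groups covered the same range (log2 fold change 0.11, SE 0.308, edgeR adjusted p = 0.907). Cdc20 shares 53 exon bases with Elovl1 on the opposite strand, which was far more abundant (62.6 ± 1.62 and 53.4 ± 4.53 CPM in KO and WT). Whether the change of Cdc20 differed from that of Ccna2 was not tested.

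All 4 tested genes of the mitotic kinase and checkpoint group had estimates below 0 (median -0.40), and none passed. Plk1, the polo-like kinase of mitotic entry and spindle assembly, measured 1.34, 0.877, 1.62 and 0.536 CPM in the KO libraries and 1.93, 2.16, 1.92 and 1.56 CPM in the WT libraries. Sample_2909_KO alone reached into the WT range (log2 fold change -0.75, SE 0.393, edgeR adjusted p = 0.324), and only 2 KO libraries passed the low-count filter. Bub1b, the checkpoint kinase-like protein BubR1, had -0.36 (SE 0.271), Aurka, the centrosomal Aurora kinase, -0.15 (SE 0.312), and Birc5, the survivin subunit of the chromosomal passenger complex, -0.44 (SE 0.437). Levels of Bub1b were 3.40 ± 0.97 and 4.32 ± 1.06 CPM, of Aurka 3.21 ± 0.94 and 3.798 ± 1.30 CPM, and of Birc5 1.06 ± 0.41 and 1.53 ± 0.67 CPM (KO and WT, SD, n = 4 each). In all 3 the groups overlapped.

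Genes of mitotic chromosomes and of the spindle overlapped between the groups too. Top2a, the topoisomerase that untangles sister chromatids, measured 5.37, 7.35, 6.05 and 4.02 CPM in the KO libraries and 8.49, 10.5, 6.82 and 5.19 CPM in the WT libraries (log2 fold change -0.38, SE 0.226, edgeR adjusted p = 0.403). Mki67 measured 4.27, 6.69, 6.27 and 3.75 CPM in the KO libraries and 4.05, 7.75, 7.09 and 5.28 CPM in the WT libraries. Its log2 fold change was -0.21 (SE 0.235, edgeR adjusted p = 0.709), and within each group its highest library was over 1.5 times its lowest. The tested spindle genes were Kif20a, a kinesin of cytokinesis (-0.10, SE 0.333), Cenpe, the kinetochore kinesin (-0.09, SE 0.304), and Nusap1, a microtubule-bundling protein (-0.28, SE 0.405). Kif20a shares 1271 exon bases with Cdc23 on the opposite strand, which was far more abundant (61.1 ± 1.52 and 64.0 ± 4.37 CPM in KO and WT).

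The 11 genes below the filter held 183 reads in KO and 234 in WT. Scaled to library size the pooled ratio was 1.03 (exact 95% interval 0.842 to 1.25, counting error only), so the pooled reads showed no common shift. Leaving out 1 library gave 0.971 to 1.08. The pool gives most weight to the deepest library, Sample_2914_WT, and mixes mitotic genes with the S phase gene Cdc6. Single genes in it lay on both sides of 1, and the pool was not tested across libraries. Ccnb2, a B-type cyclin of CDK1, had 11, 13, 4 and 8 reads in KO and 0, 0, 16 and 4 in WT, a pooled ratio of 2.37 (1.33 to 4.31). The shallowest WT libraries, Sample_2911_WT and Sample_2913_WT, held none, while Sample_2909_KO lay below the deepest, Sample_2914_WT, in CPM. An exact 2-sided permutation test over libraries gave p = 0.0571, where 0.0286 is the smallest that 4 against 4 libraries allow. Its direction is opposite to that of Ccna2 at a like depth of reads.

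**Figure D4:**
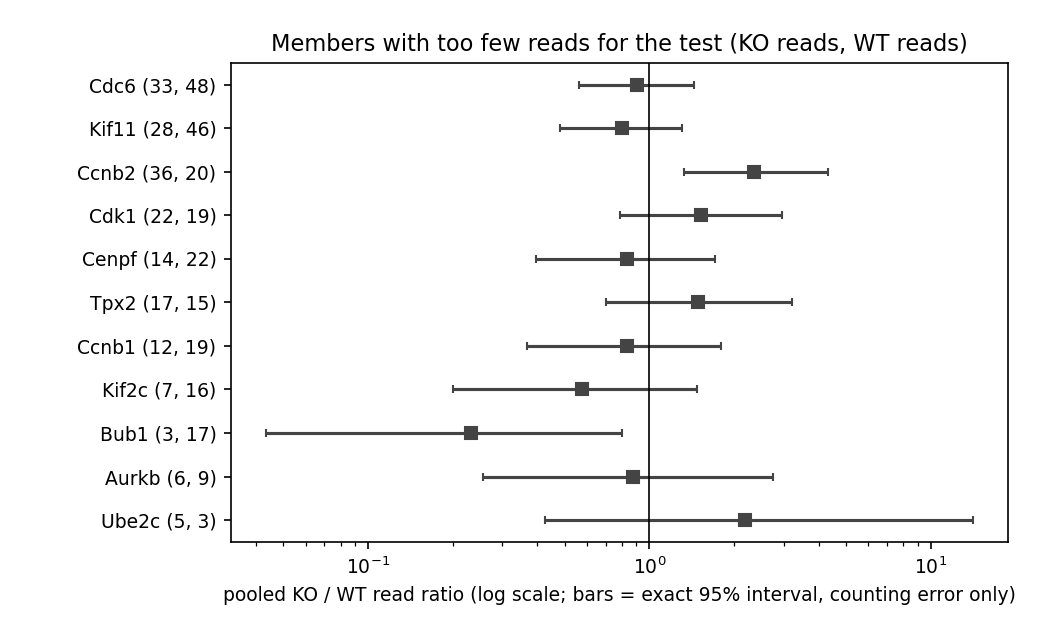
Pooled KO to WT read ratio on a log axis for the 11 genes with too few reads for the test, scaled to library size, with exact 95% intervals that cover counting error only. The intervals of Ccnb2 (2.37) and Bub1 (0.232) leave out 1, and the other 9 include it.

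Bub1, the spindle checkpoint kinase, had 0, 0, 2 and 1 reads in KO and 4, 0, 11 and 2 in WT. Its pooled ratio was 0.232 (0.0435 to 0.802), and its exact permutation p over libraries was 0.257. Cdk1 had 22 KO and 19 WT reads (ratio 1.52) and Tpx2, the Aurora A activator, 17 and 15 (ratio 1.49, exact permutation p = 0.0571). Ccnb1 had 12 and 19 reads, and Kif11, the kinesin that separates spindle poles, 28 and 46. The remaining genes were Cenpf with 14 and 22 reads, Kif2c with 7 and 16, Aurkb with 6 and 9, Ube2c with 5 and 3, and Cdc6 with 33 and 48. Exact permutation tests of these 11 genes gave no p under 0.05. With limma-trend on the normalized values 3 members of the set changed, and the one besides Tk1 and Ccna2 was among these low-count genes.

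Summed over each class of the 40, the 17 S phase genes separated the groups and the 21 mitotic genes did not. The sum of 37 further S phase genes, given below, overlapped between the groups. The 17 S phase genes summed to 588, 584, 626 and 576 CPM in KO and 550.2, 548, 530.4 and 561 CPM in WT (593.5 ± 22.4 and 547.4 ± 12.7 CPM, SD, n = 4 each). Every KO library was above every WT library. The Mcm2 to Mcm7 genes and Pcna make up most of this sum. The 21 mitotic genes summed to 35.0, 35.96, 37.1 and 31.6 CPM in KO and 44.4, 49.0, 40.5 and 34.6 CPM in WT (34.9 ± 2.36 and 42.1 ± 6.10 CPM). Sample_2911_WT, Sample_2913_WT and Sample_2914_WT were above all KO libraries, and Sample_2915_WT lay inside the KO range.

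**Figure D5:**
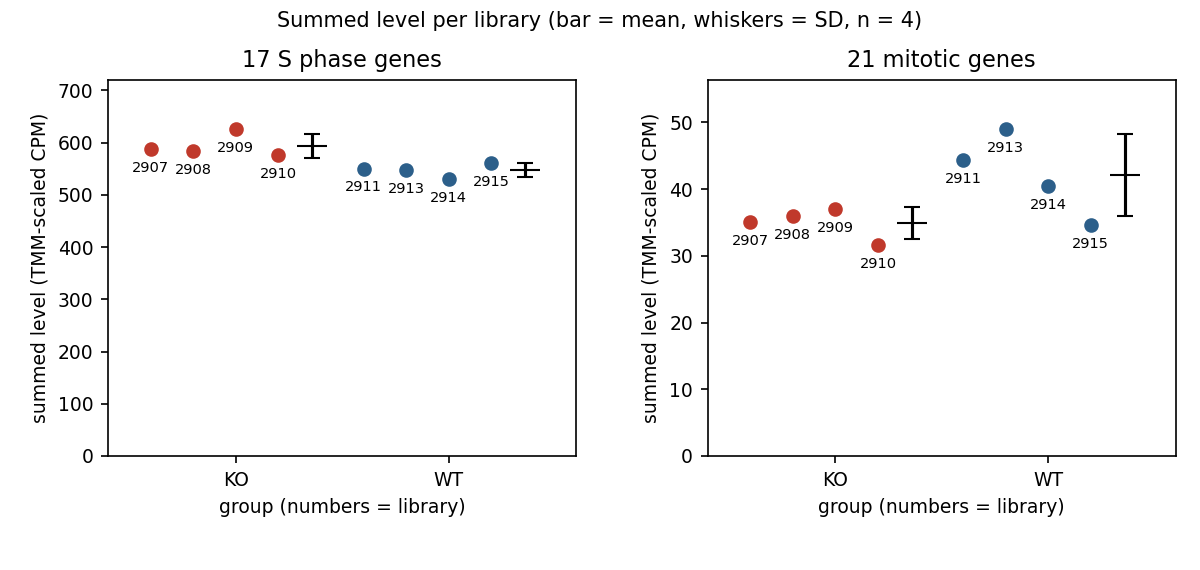
Summed level (y axis, TMM-scaled CPM) of the 17 S phase genes and of the 21 mitotic genes in each library (points, numbered), with the group mean and SD (n = 4). S phase sums lie at 576 to 626 CPM in KO and 530.4 to 561 CPM in WT, while the mitotic sum of Sample_2915_WT (34.6 CPM) falls among the KO libraries.

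Within a library, the S phase sum was 16.8, 16.2, 16.9 and 18.2 times the mitotic sum in KO and 12.4, 11.2, 13.1 and 16.2 times in WT. The lowest KO library and the highest WT library were at nearly the same ratio. Of the 21 mitotic genes, 6 were at 0 reads in the shallowest library (Sample_2911_WT) and 1 in the deepest (Sample_2914_WT). The B cell and immature thymocyte marker sums were lower in KO and the activated and plasma cell sums higher, without overlap between groups. They therefore moved with the labels as the S phase sum did. Among tested markers, 5 of 8 activated and 3 of 3 plasma cell genes had log2 fold changes above 0. So did 1 of 4 B cell and 1 of 2 thymocyte genes. By the edgeR test 2 activated and 1 plasma cell marker rose in KO, while 1 activated, 1 B cell and 1 thymocyte marker fell. Of all tested genes 3.98% rose and 2.41% fell. The part of these marker sums in the result was not tested.

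The 2 further genes had estimates of opposite sign and neither passed. Stmn1, the tubulin-sequestering protein stathmin, measured 5.74, 4.71, 3.35 and 4.55 CPM in the KO libraries and 9.46, 6.13, 5.88 and 7.10 CPM in the WT libraries. Every KO library was below every WT library (log2 fold change -0.61, SE 0.225, edgeR adjusted p = 0.113). Hmgb2, a chromatin protein abundant in dividing cells, measured 35.5, 32.8, 36.2 and 36.3 CPM in the KO libraries and 34.0, 29.0, 22.7 and 28.4 CPM in the WT libraries. Sample_2911_WT reached into the KO range (log2 fold change 0.34, SE 0.108, edgeR adjusted p = 0.0582). Hmgb2 passed with no count filter (adjusted p = 0.0386), without Sample_2908_KO (0.0407) and without Sample_2911_WT (0.0149). Processed pseudogenes near-identical to Hmgb2 held at most 4 reads.

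The genes upstream of the cycle were read from lists of the regulators. The share of all tested genes that rose was 3.98% and that fell 2.41%. Of 9 G1 cyclins and kinases, 8 were tested, 2 rose and none fell. Ccnd2, cyclin D2, rose from 574.2 ± 32.4 to 856.9 ± 58.7 CPM (SD, n = 4 each; log2 fold change 0.58, SE 0.057, edgeR adjusted p = 1.58e-08). Cdk6, its kinase partner, rose from 31.4 ± 4.51 to 45.3 ± 4.00 CPM (0.50, SE 0.101, adjusted p = 0.00131). Ccnd3, cyclin D3, had 0.39 (SE 0.113, adjusted p = 0.0828). It passed in 5 of 17 alternatives: DESeq2 (adjusted p = 0.00179), no count filter (9.14e-08), a non-robust fit (0.0127), thinning (0.00505) and without Sample_2908_KO (1.61e-07), at log2 fold changes of 0.39 to 0.50. Cdk4 had -0.12 (adjusted p = 0.411). Ccnd1 was nearly silent, with 13 reads in KO and 18 in WT.

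Of 8 CDK inhibitors 3 were tested and 1 fell, where 2.41% of all tested genes fell. Cdkn2d (p19INK4d), an inhibitor of CDK4 and CDK6, averaged 68.4 ± 2.57 CPM in KO against 80.8 ± 4.66 CPM in WT (log2 fold change -0.23, edgeR adjusted p = 0.0399), a call lost in 10 of 17 alternatives (adjusted p 0.0521 to 0.193). Single libraries that ended it when left out were Sample_2907_KO, Sample_2908_KO, Sample_2910_KO, Sample_2911_WT, Sample_2913_WT and Sample_2915_WT. Cdkn1b (p27Kip1), the abundant inhibitor of resting T cells, stood at 335 ± 18.4 and 315 ± 4.51 CPM (0.09, adjusted p = 0.417). Cdkn1a (p21) had 9 and 7 reads.

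Of 19 pocket protein, E2F and DREAM or MMB genes 17 were tested and 1 fell, where 2.41% of all tested genes fell. This was E2f2 (24.7 ± 2.19 against 33.7 ± 7.53 CPM, log2 fold change -0.43, edgeR adjusted p = 0.0300). Its call was lost in 6 of 17 alternatives (adjusted p 0.0515 to 0.158), among them leaving out Sample_2907_KO, Sample_2908_KO, Sample_2910_KO or Sample_2913_WT. Rb1 and Rbl2 (p130), the pocket proteins, had 0.06 and -0.01. Among 15 genes of CDK phosphorylation and mitotic exit 12 were tested and 1 rose, where 3.98% of all tested genes rose. Cdc25b, a phosphatase that activates CDK1, rose from 50.7 ± 5.41 to 80.6 ± 3.46 CPM (0.66, SE 0.079, adjusted p = 5.59e-07). Of 9 quiescence genes 1 rose against the same 3.98%, Slfn2, a Schlafen protein needed for T cell quiescence (0.24, adjusted p = 0.00429).

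Wider lists of S phase and mitotic genes did not repeat the lean of the 40. Their sums, not scaled to length, showed no such gap in level between the classes either. The 37 further S phase genes summed to 1219 to 1277 CPM in KO and 1237 to 1291 CPM in WT, so the groups overlapped. The 36 further mitotic genes summed to 1074 to 1304 CPM in KO and 1037 to 1216 CPM in WT. Among all tested genes 3.98% rose and 2.41% fell. Of 37 further S phase genes 32 were tested and 17 were above 0 (median 0.03), with Lig1, the ligase of Okazaki fragments, the 1 that rose (log2 fold change 0.41, edgeR adjusted p = 0.0370) and none that fell. Of 36 further mitotic genes 23 were tested and 13 were above 0 (median 0.04). In it the chromokinesin Kif22 (0.51, adjusted p = 0.0294) and the securin gene Pttg1 (0.33, adjusted p = 0.0279) rose. Kif23, a kinesin of the central spindle, fell from 12.2 ± 1.01 to 6.93 ± 1.53 CPM (-0.79, SE 0.175, adjusted p = 0.00348). Lig1 lost its call in 9 of 17 alternatives (adjusted p 0.0529 to 0.146), including without Sample_2907_KO, Sample_2909_KO, Sample_2910_KO, Sample_2911_WT, Sample_2913_WT or Sample_2914_WT. Kif22 lost it in 8 of 17 (adjusted p 0.0534 to 0.377), including without Sample_2907_KO, Sample_2908_KO, Sample_2910_KO, Sample_2911_WT, Sample_2914_WT or Sample_2915_WT. Pttg1 lost it in 6 of 17 (adjusted p 0.0507 to 0.185), including without Sample_2908_KO, Sample_2910_KO, Sample_2913_WT, Sample_2914_WT or Sample_2915_WT. Ccnd2, Cdk6, Cdc25b, Slfn2 and Kif23 passed in all 17 alternatives. The lists share no gene with the 40.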

How the data were processed

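Poly(A) RNA of naive CD4 T cells was sequenced as single reads with a TruSeq RNA v2 kit, per the labels' protocols. That kit does not mark strand. CASAVA 1.8.2, FastQC, R 3.5.3, DESeq2 1.22.2 and build mm10 are named per the submitters' processing notes. The sources used here do not give the aligner, the counter or its strand setting. The authors deposited a table of whole-number read counts for 53465 gene IDs, and a normalized signal table that the authors' size factors make from it (each value is the count over 1 size factor per sample) for the 16418 genes with at least 10 reads. Symbols came from the normalized table for the genes it holds, and otherwise from GENCODE M21 (GRCm38) or a list of gene names. Positions came from GENCODE M21, which held 53360 of the IDs (99.8%).

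Samples were grouped by label, 4 KO and 4 WT. The main test was the robust quasi-likelihood F test of edgeR 4.0.16 in R 4.3.3 on the counts, with TMM scaling and filterByExpr (11772 genes kept, cutoff 1.15 CPM), and the threshold was 0.05 on the p adjusted by Benjamini-Hochberg over all tested genes. Levels per length divide by the union of exons. Genes below the filter had reads pooled per group, with exact conditional intervals and exact 2-sided permutation tests over 70 relabellings. Intervals cover counting error only. Promoter windows are RefSeq's (GRCm38.p6), searched for exact strings, and copies were sought with BLAST+ 2.17.0. The edgeR fit was tested on simulated counts, and the pooled-ratio interval on simulated reads with counting error alone. The other steps were not tested on simulated data. Alternatives were DESeq2 1.42.0, limma 3.58.1 on log2 of the normalized values plus 1, other scalings and filters, leaving out libraries, and thinning to 5227758 reads. The cell cycle genes, the lists, the promoter strings and the rule for named genes (members in role order, and list genes that passed or are the main regulators) were chosen with earlier results of these data known. Some genes of the marker lists are not reported here.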

Additional observations from a re-analysis of the deposited data

Results flagged for a closer look

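In 8 of 80 groups of 4 libraries, 1 library lay far from the other 3 by Dixon's gap test. Chance flags about 1 in 20 groups where values are normally distributed. Low counts at unequal depth need not follow that rate, so no excess is claimed. Of the 8, 4 were in Sample_2913_WT. There Ccna2 stood at 2.70 CPM (15 reads; the others at 1.16 to 1.30 CPM), Birc5 at 2.52 CPM (14 reads; 1.11 to 1.35) and Kif11 at 2.34 CPM (13 reads; 0.758 to 0.965), all high, while Tyms stood low at 1.98 CPM (11 reads; 3.67 to 3.92). In Sample_2911_WT Kif20a was high at 5.79 CPM (30 reads; 2.77 to 2.94) and Cenpf was at 0 CPM (0.519 to 0.579 in the others). In Sample_2908_KO Tk1 was low at 6.58 CPM (60 reads; 8.75 to 8.84), and in Sample_2909_KO Aurkb was high at 0.324 CPM from 3 reads (0.110 to 0.134). The cause was not tested.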

How the results depend on the processing

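Of 489 alternative values for single members, 453 kept their direction and side of the threshold, 12 lost a call, 4 gained one and 20 changed sign. Of 306 for other named genes, 251 kept both, 40 lost a call, 9 gained one and 6 changed sign. These genes were Satb1, Ap4m1, the main regulators and the genes of the regulator and wider lists that passed. The number of members changed was 2, and 0 to 3 when 1 library was left out. It was 3 with no count filter and 3 with limma-trend on the normalized values. It was 0 without Sample_2911_WT and Sample_2914_WT together and 0 with thinning, and the genes changed over all fell from 752 to 481 without that pair (562 to 836 leaving out 1 library). The median log2 fold change stayed at 0.12 to 0.18 for S phase and at -0.44 to -0.17 for mitotic members in all 17 alternatives. The pooled ratio of low members lay at 0.971 to 1.08 in the 9 alternatives run for it. The level ratio of the classes moved to 16.8 with the longest transcript. Members near 0 changed sign: Mcm2 with library size only (-0.013) and no filter (-0.00018), and without the pair Mcm7 (-0.058), Kif20a (0.19) and Cenpe (0.19). Rbl2 changed sign without the pair (0.044) and with thinning (0.010). Leaving out 1 library changed the sign of Cenpe (-0.20 to 0.12), Cdc20 (-0.10 to 0.24), Kif20a (-0.28 to 0.17), E2f1 (-0.30 to 0.19), Rb1 (-0.017 to 0.12), Mcm4 (-0.016 to 0.079), Rbl2 (-0.063 to 0.050), Mcm2 (-0.013 to 0.017), Aurka (-0.44 to 0.0034) and Mcm7 (-0.040 to 0.083). The causes were not tested. Depth limits the mitotic genes, of which 10 of 21 could not be tested. No paired analysis was possible because the groups share no sample number.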
